A study of Mus musculus with 6 samples.

Results

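The GET pathway and SND targeting genes are 8 of the 49584 gene identifiers in the count table. They were chosen by symbol, through the GENCODE vM21 annotation: Sgta, Bag6, Ubl4a, Get4, Asna1, Camlg, Wrb and Tmem208. Camlg carries the symbol Caml in that annotation and was matched through its RefSeq synonym at the same position, and Get1 is the current name of Wrb. The study profiled poly(A) RNA by Smart-seq2, a full-length cDNA method, from germ cells at the leptotene and zygotene stages of meiotic prophase, purified by flow cytometry from testes of mice at postnatal day 12. There were 3 libraries labelled Srp68 SKO, a knockout of the Srp68 component of the signal recognition particle (SRP), and 3 labelled wild type. The deposited columns write CKO for the knockout. The sources used here give neither the strain, the deleted exons nor any Cre driver. Separate animals are not named for the replicates either, so p-values measure only how far these libraries scatter, which may be technical. All 8 genes had counts in all 6 libraries and passed the filter on low counts.

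SRP meets a nascent protein at the ribosome and brings it to the endoplasmic reticulum (ER) during translation. Proteins whose only membrane segment lies at the very C terminus, called tail-anchored proteins, leave the ribosome before that segment can be recognised and are handled after translation by the GET pathway (also TRC pathway). SGTA captures the segment first, the BAG6, UBL4A and GET4 complex passes the protein on, the ATPase ASNA1 (GET3, TRC40) carries it, and the receptor of CAMLG and WRB inserts it into the ER membrane. TMEM208 is the mammalian counterpart of yeast Snd2, a factor of the SRP-independent (SND) route to the ER. BAG6 has a further role in the testis, where mouse knockout work linked it to the stability of the chaperone HSPA2 and to survival of meiotic germ cells.

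Libraries held 11.9 to 12.7 M counts in SKO and 14.3 to 15.4 M in wild type (two-sided exact permutation test, p = 0.1, the smallest that 3 libraries against 3 allow). Srp68 itself had 147, 70 and 72 counts in SKO replicates 1 to 3, against 337, 505 and 345 in wild type replicates 1 to 3. Levels are CPM, counts scaled to a common library size with edgeR's TMM factors. Of 11 leptotene and zygotene markers, all tested, 8 were higher and 1 lower, with summed levels of 27408 to 35983 CPM in SKO and 15952 to 19902 CPM in wild type. Of 12 pachytene markers, 8 were tested, of which 6 were lower and 1 higher, with sums of 659 to 727 CPM in SKO against 855 to 963 CPM in wild type. Of 8 spermatogonial markers, 7 were tested, of which 1 was lower and 6 did not pass. Their sums were 232 to 308 CPM in SKO against 347 to 400 CPM in wild type. Sertoli markers summed to 21.3 to 104 CPM in SKO against 41.7 to 53.0 CPM in wild type, and macrophage markers to 2.14 to 32.6 CPM against 1.80 to 2.77 CPM, both highest in SKO replicate 3. Spermatid markers reached 12.8 to 18.1 CPM in SKO and 18.2 to 28.4 CPM in wild type (Prm2 and Tnp2 at 0), Leydig markers 4.94 to 9.87 and 0.58 to 6.60 CPM (Cyp11a1 and Cyp17a1 at 0), myoid markers 4.61 to 13.3 and 1.04 to 2.36 CPM (Des at 0), endothelial markers 0.77 to 1.86 and 0.516 to 1.57 CPM, and erythroid markers 37.1 to 148 and 2.77 to 137 CPM. The part of these stage and cell type markers in the results below was not tested. In such bulk samples fewer cells of a type and less RNA per cell cannot be told apart.

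Of the 8 genes, 5 were lower in SKO spermatocytes (Asna1, Get4, Sgta, Bag6 and Camlg), 1 was higher (Ubl4a) and 2 did not pass (Wrb and Tmem208). Genes were tested by quasi-likelihood in edgeR, with p-values adjusted over 13474 genes by the Benjamini-Hochberg method and called under 0.05. By the same test, 14.4% of all tested genes were lower, 14.1% higher and 28.5% called in either direction. The median log2 fold change, SKO over wild type, was −0.77 for the 8 genes and −0.03 for all tested genes. With each library's trend on transcript GC content and length removed, 3 of the 8 were lower and 1 higher, and the medians were −0.35 for the 8 genes and −0.06 for all tested genes. In 5 of the 8 every SKO library lay below every wild type library (Asna1, Get4, Bag6, Camlg and Tmem208), which was so for 22.2% of all tested genes, and in Ubl4a every SKO library lay above (21.6%, and 43.8% without overlap in either direction). DESeq2 also called 5 lower and 1 higher, at 32.8% of all genes called. With library totals in place of TMM, 6 were lower and Ubl4a was no longer called, at 31.0% of all genes called and 23.5% called lower, and the medians were −1.03 for the 8 genes and −0.29 for all tested genes. The 5 decreases were in genes of the cytosolic steps and in Camlg of the receptor, and the increase was in the ubiquitin-like subunit Ubl4a.

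**Figure D1:**
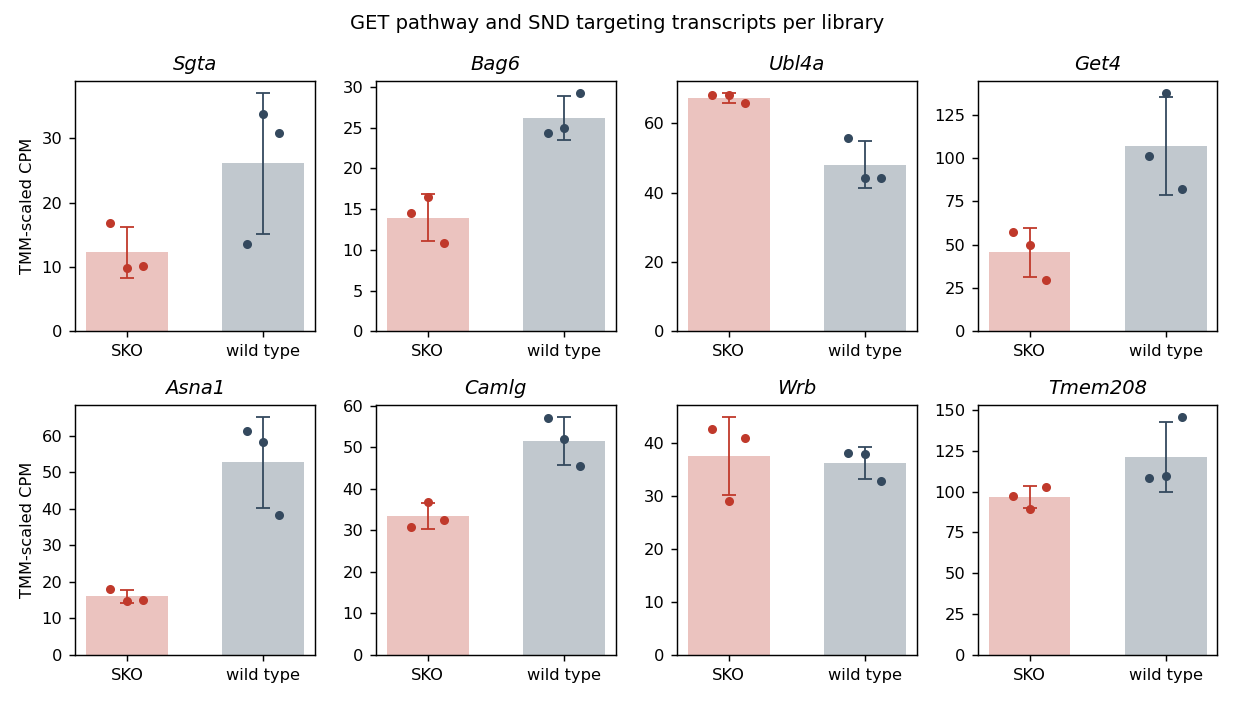
TMM-scaled CPM of the 8 genes in each library, with SKO left of wild type. Points are libraries in the order of replicates 1 to 3, bars are means and whiskers SD (n = 3). Asna1, Get4, Bag6, Camlg and Tmem208 show every SKO point below every wild type point, Ubl4a the reverse, and Sgta and Wrb overlap.

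The RefSeq promoter table (GRCm38.p6, 250 bases before to 50 after each start) held windows for 6 of the 8 genes, with Asna1 listed as Get3 and Wrb as Get1. The windows of the 4 genes that fell and have one are shown, 5′ to 3′ on the gene's own strand, because these are the sequences before the genes called lower. Get4 and Sgta have 2 windows each in the table, and the window whose start lies nearest the GENCODE 5′ end was taken. They lie at chr8:85025238-85025537 on the minus strand (Asna1), chr5:139252074-139252373 on the plus strand (Get4), chr17:35134963-35135262 on the plus strand (Bag6) and chr10:81060127-81060426 on the minus strand (Sgta). Capitals mark matches, on either strand, to the motifs listed after the sequences.
Asna1: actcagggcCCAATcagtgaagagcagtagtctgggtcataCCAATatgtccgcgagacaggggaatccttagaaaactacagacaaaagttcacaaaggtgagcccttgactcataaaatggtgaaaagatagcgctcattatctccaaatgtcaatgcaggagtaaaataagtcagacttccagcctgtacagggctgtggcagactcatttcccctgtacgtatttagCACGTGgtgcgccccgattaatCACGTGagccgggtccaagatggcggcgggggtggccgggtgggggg
Get4: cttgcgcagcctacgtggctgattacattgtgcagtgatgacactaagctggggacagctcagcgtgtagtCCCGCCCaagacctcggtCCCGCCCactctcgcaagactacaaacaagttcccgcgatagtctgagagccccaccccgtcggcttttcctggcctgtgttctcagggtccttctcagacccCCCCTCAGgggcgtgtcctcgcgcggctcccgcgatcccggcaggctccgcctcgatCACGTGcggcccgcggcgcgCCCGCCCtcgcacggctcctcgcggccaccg
Bag6: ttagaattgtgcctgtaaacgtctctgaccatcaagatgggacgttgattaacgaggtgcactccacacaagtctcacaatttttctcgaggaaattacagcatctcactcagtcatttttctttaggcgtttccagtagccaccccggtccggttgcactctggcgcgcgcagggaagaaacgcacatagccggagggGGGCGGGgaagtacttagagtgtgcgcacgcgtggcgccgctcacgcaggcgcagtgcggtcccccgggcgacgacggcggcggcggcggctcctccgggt
Sgta: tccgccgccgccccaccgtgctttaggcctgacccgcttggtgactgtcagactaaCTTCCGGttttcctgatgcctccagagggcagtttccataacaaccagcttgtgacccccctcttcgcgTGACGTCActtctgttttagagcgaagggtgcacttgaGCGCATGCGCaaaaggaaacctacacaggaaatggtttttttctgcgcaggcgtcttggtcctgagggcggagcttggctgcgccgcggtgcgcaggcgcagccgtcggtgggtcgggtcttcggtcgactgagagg

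The motifs searched on both strands, each with the share of all 32851 promoter windows of this length that hold it, were the CCAAT box CCAAT (37.4%), the GC box CCCGCCC (25.6%), the ETS element CCGGAAG (8.86%), the element CNCCTCAG reported to be bound by STRA8 (7.94%), the E-box CACGTG (7.15%), the cAMP response element TGACGTCA (1.79%), the palindromic NRF1 element (0.971%), TGATGCAA as a composite element of CHOP and ATF4 (0.895%) and the ER stress response element, CCAAT followed by CCACG at a fixed spacing (0.119%), which contains a CCAAT box. CACGTG was found at −19 and 3 relative to the start in Asna1 and at −1 in Get4. The Asna1 window also holds CCAAT at −241 and −209, and the Get4 window CCCGCCC at −179, −161 and 19 and a CNCCTCAG match at −58. Bag6 has a single match, CCCGCCC on the reverse strand at −51. Sgta has CCGGAAG on the reverse strand at −194, TGACGTCA at −125 and the NRF1 element at −87. The Ubl4a window, from the minus strand of the X chromosome, has its start 4670 bases from the GENCODE 5′ end of the gene and holds CCCGCCC and CCGGAAG, both on the reverse strand, and the Wrb window held none of these letters. No motif searched stands in all 4 windows shown. GC content of the windows was 51.3% for Asna1, 67% for Get4, 59.3% for Bag6, 60% for Sgta, 69.7% for Ubl4a and 68.3% for Wrb, against a median of 52.7% over all windows. A match is a description of letters and was not tested as a binding site.

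Sgta, the cochaperone that takes tail-anchored proteins first, fell, with the widest spread of the called genes. Sgta (ENSMUSG00000004937, chromosome 10, 81044075 to 81060181, minus strand) stood at 16.9, 9.87 and 10.1 CPM in SKO replicates 1 to 3, against 13.5, 33.8 and 30.9 CPM in wild type replicates 1 to 3. Wild type replicate 1 lay below SKO replicate 1, so the groups overlap. The log2 fold change was −1.08 (SE 0.33, edgeR adjusted p = 0.024). The call was lost without SKO replicate 2 (adjusted p = 0.107), SKO replicate 3 (0.098), wild type replicate 2 (0.113) or wild type replicate 3 (0.0757), and in limma-voom (0.0529). Log2 fold changes without 1 library ran from −1.39 to −0.85. With each library's trend on GC content and length removed, Sgta stood at −0.34 and was not called (edgeR adjusted p = 0.475). Its paralogue Sgtb averaged 4.94 ± 0.218 CPM in SKO and 5.97 ± 3.01 CPM in wild type (SD, n = 3 each, edgeR adjusted p = 0.671).

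The 3 genes of the handover complex did not move together. Bag6 (ENSMUSG00000024392, chromosome 17, 35135178 to 35147322, plus strand), the scaffold, had 14.6, 16.5 and 10.8 CPM in SKO replicates 1 to 3, against 24.4, 24.9 and 29.3 CPM in wild type. All SKO libraries were below all wild type libraries, and the log2 fold change was −0.91 (SE 0.23, edgeR adjusted p = 0.008). Get4 (ENSMUSG00000025858, chromosome 5, 139252324 to 139270051, plus strand), which links the complex to ASNA1, had 57.0, 49.5 and 29.8 CPM in SKO, against 101, 138 and 82.2 CPM in wild type. It was lower in all SKO libraries, with SKO replicate 3 lowest, at a log2 fold change of −1.23 (SE 0.23, edgeR adjusted p = 0.000996). Both calls held without each library in turn, with Bag6 between −1.05 and −0.76 and Get4 between −1.44 and −1.01. With the GC content and length offsets the Bag6 call was lost (−0.36, adjusted p = 0.265) and Get4 stood at −0.58 (adjusted p = 0.0241).

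Ubl4a, the ubiquitin-like subunit that binds SGTA, rose. Ubl4a (ENSMUSG00000015290, X chromosome, 74365718 to 74373218, minus strand) had 68.2, 68.2 and 65.8 CPM in SKO, against 55.9, 44.2 and 44.1 CPM in wild type. Its SKO libraries lay within a narrow range above all wild type libraries, and the log2 fold change was 0.49 (SE 0.15, edgeR adjusted p = 0.0236). It kept its direction without each library in turn (0.43 to 0.61), but the call was lost without SKO replicate 1 (adjusted p = 0.0618), SKO replicate 2 (0.0855), SKO replicate 3 (0.0555), wild type replicate 2 (0.0875) or wild type replicate 3 (0.0662), and under library totals (log2 fold change 0.23, adjusted p = 0.295). Ubl4a is the only X-linked gene of the 8. Of 614 tested X-linked genes, 169 (27.5%) were higher and 23 (3.75%) lower (median log2 fold change 0.39), against 13.4% higher and 14.9% lower of 12802 autosomal genes (median −0.05). The part of X linkage in the Ubl4a value was not tested. Of its exon length 8.21% is shared with Slc10a3 on the same strand. Its autosomal retrogene copy Ubl4b, described in germ cells after meiosis, had 0 counts in all 6 libraries.

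Asna1 had the largest change of the 8. This ATPase (ENSMUSG00000052456, chromosome 8, 85017931 to 85025281, minus strand) had 18.2, 14.9 and 15.0 CPM in SKO replicates 1 to 3, against 61.5, 58.4 and 38.4 CPM in wild type replicates 1 to 3. The highest SKO library was below the lowest wild type library by more than the whole range of the SKO libraries. The log2 fold change was −1.72 (SE 0.21, edgeR adjusted p = 4.91e-05), and 3.8% of tested genes had a lower one. It was called without each library in turn, between −1.90 and −1.59, and under all 18 alternatives run, with an adjusted p of at most 0.000888.

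The receptor subunits differed. Camlg (ENSMUSG00000021501, chromosome 13, 55623005 to 55632411, plus strand), the subunit that recruits ASNA1 together with WRB, had 30.9, 36.9 and 32.4 CPM in SKO, against 57.2, 52.1 and 45.5 CPM in wild type. All SKO libraries were lower, with a log2 fold change of −0.63 (SE 0.16, edgeR adjusted p = 0.00991). The Camlg call held under all 18 alternatives, most narrowly without wild type replicate 1 (edgeR adjusted p = 0.0476). Wrb (ENSMUSG00000023147, chromosome 16, 96145407 to 96157852, plus strand), whose coiled coil docks ASNA1, had 42.6, 29.0 and 41.0 CPM in SKO, against 38.0, 38.0 and 32.7 CPM in wild type. SKO replicate 2 was lowest of all 6 libraries and the groups overlap. The log2 fold change was 0.05 (SE 0.19, edgeR adjusted p = 0.875), and it was −0.21 with library totals (adjusted p = 0.458). A non-coding gene on the opposite strand covers 11.6% of the Wrb exon length, and reads of the strands cannot be told apart.

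Tmem208, the SND factor, did not pass. Tmem208 (ENSMUSG00000014856, chromosome 8, 105326354 to 105335219, plus strand) had 97.4, 89.5 and 103 CPM in SKO, against 108, 110 and 146 CPM in wild type. The groups do not overlap, though the gap between the nearest libraries is small and wild type replicate 3 stands high. The log2 fold change was −0.33 (SE 0.14, edgeR adjusted p = 0.0945). With library totals it was −0.59 (adjusted p = 0.0049). Of its exon length 7.68% overlaps Fhod1 on the opposite strand.

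Ordered by level per length, that is CPM per kilobase of merged exons, the pathway spanned a wide range. In SKO libraries the mean levels were 63.9 ± 4.46 for Tmem208, 21.5 ± 0.441 for Ubl4a, 19.0 ± 1.80 for Camlg, 18.7 ± 5.78 for Get4, 8.60 ± 1.70 for Wrb, 8.52 ± 0.993 for Asna1, 4.27 ± 1.38 for Sgta and 2.24 ± 0.466 for Bag6 (SD, n = 3). In wild type libraries they were 80.3 ± 14.1 for Tmem208, 44.0 ± 11.6 for Get4, 29.4 ± 3.33 for Camlg, 28.0 ± 6.67 for Asna1, 15.3 ± 2.16 for Ubl4a, 9.07 ± 3.82 for Sgta, 8.30 ± 0.696 for Wrb and 4.21 ± 0.433 for Bag6 (SD, n = 3). In SKO the neighbours Ubl4a and Camlg, Camlg and Get4, and Wrb and Asna1 overlapped, and in wild type Camlg and Asna1, and Sgta and Wrb did. Tmem208 was highest and Bag6 lowest in both genotypes. Camlg held place 3 in both, and the places of the other genes differed. Counted from the highest, Asna1 stood at place 6 in SKO and place 4 in wild type. Ubl4a stood at place 2 in SKO and place 5 in wild type, and Get4 at place 4 in SKO and place 2 in wild type. Wrb stood at place 5 in SKO and place 7 in wild type, and Sgta at place 7 in SKO and place 6 in wild type. Places between the overlapping neighbours named above are not distinct. The same holds for Ubl4a and Get4 in SKO, where the range of Get4 (12.3 to 23.5) spans that of Ubl4a (20.9 to 21.7). In wild type the lowest Sgta library (4.705) also lay just under the highest Bag6 library (4.710).

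Ratios between partners within a library do not depend on scaling between libraries. The log2 ratio of Ubl4a to Bag6 counts was 2.23, 2.05 and 2.61 in SKO replicates 1 to 3, against 1.20, 0.83 and 0.59 in wild type replicates, a difference of 1.42 without overlap. That of Asna1 to Camlg was −0.76, −1.31 and −1.11 in SKO, against 0.11, 0.17 and −0.25 in wild type, a difference of −1.07 without overlap. That of Wrb to Camlg was 0.47, −0.35 and 0.34 in SKO, against −0.59, −0.45 and −0.48 in wild type, a difference of 0.66 without overlap. In counts within a library, then, Ubl4a stood higher relative to its scaffold, Asna1 lower relative to its receptor, and the receptor subunits were in a different proportion. Each of these 3 differences had a two-sided exact permutation p = 0.1, the smallest the design allows, and an adjusted p of 0.167 over the 5 ratios computed. With GC content and length offsets the differences were 1.10 for Ubl4a to Bag6, −0.57 for Asna1 to Camlg and 0.75 for Wrb to Camlg, at the same exact permutation p = 0.1. The ratios of Get4 to Bag6 (difference −0.33, exact permutation p = 0.4) and of Sgta to Bag6 (difference −0.10, exact permutation p = 0.8) overlapped between genotypes.

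**Figure D2:**
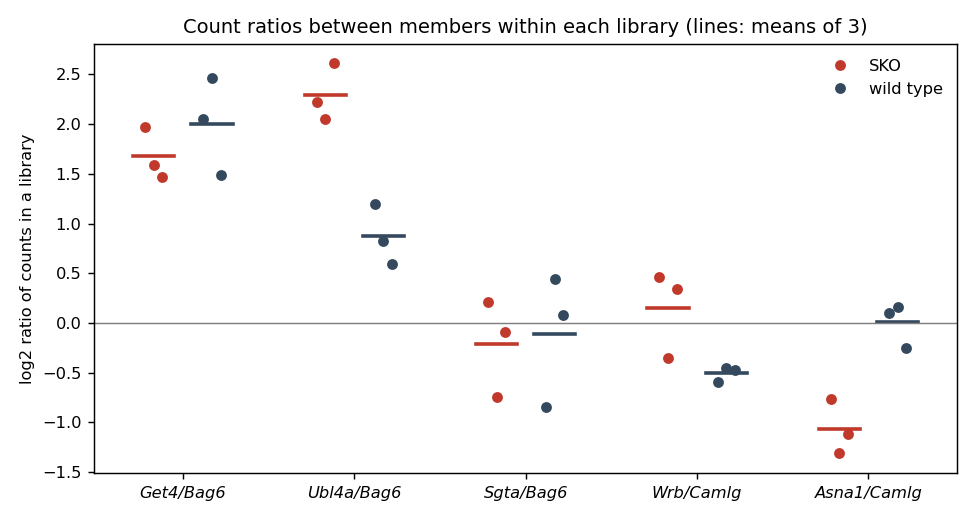
Log2 ratio of raw counts between partner genes in each library (y axis), SKO left of wild type for each of 5 ratios, with points for libraries and lines for means of 3. Ubl4a/Bag6 and Wrb/Camlg are higher and Asna1/Camlg lower in all SKO libraries, while Get4/Bag6 and Sgta/Bag6 overlap.

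The 4 members with the lowest fold changes have the most GC-rich transcripts of the 8. GC content of the longest transcript was 56.1% for Asna1, 56.5% for Get4, 59.2% for Sgta and 59.9% for Bag6, above 86.4% to 96.5% of tested genes. It was 49.4% for Wrb, 49.7% for Camlg, 50.4% for Ubl4a and 52.3% for Tmem208. Over all tested genes the log2 fold change moved with this measure: the median was 0.27 for 4029 genes under 45% GC, 0.01 for 3680 genes from 45 to 50%, −0.23 for 3259 genes from 50 to 55%, −0.51 for 2031 genes from 55 to 60% and −0.58 for 453 genes from 60%. Of the genes from 55 to 60% GC, where these 4 lie, 24.0% were called lower. With each library's trend on GC content and length removed, 3 members remained lower, at 13.4% of genes called lower and 23.4% called in either direction. Asna1 stood at −1.17 (adjusted p = 0.000386), Get4 at −0.58 (0.0241) and Camlg at −0.58 (0.0147), whereas Bag6 at −0.36 (0.265) and Sgta at −0.34 (0.475) lost their calls. Ubl4a stood at 0.73 (0.00177), Wrb at 0.19 (0.495) and Tmem208 at −0.23 (0.263). Camlg, of middling GC content, stayed close to its value without the offsets (−0.63), and the fold changes of the 4 GC-rich members were smaller. What part GC content has in the differences was not tested beyond these offsets.

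**Figure D3:**
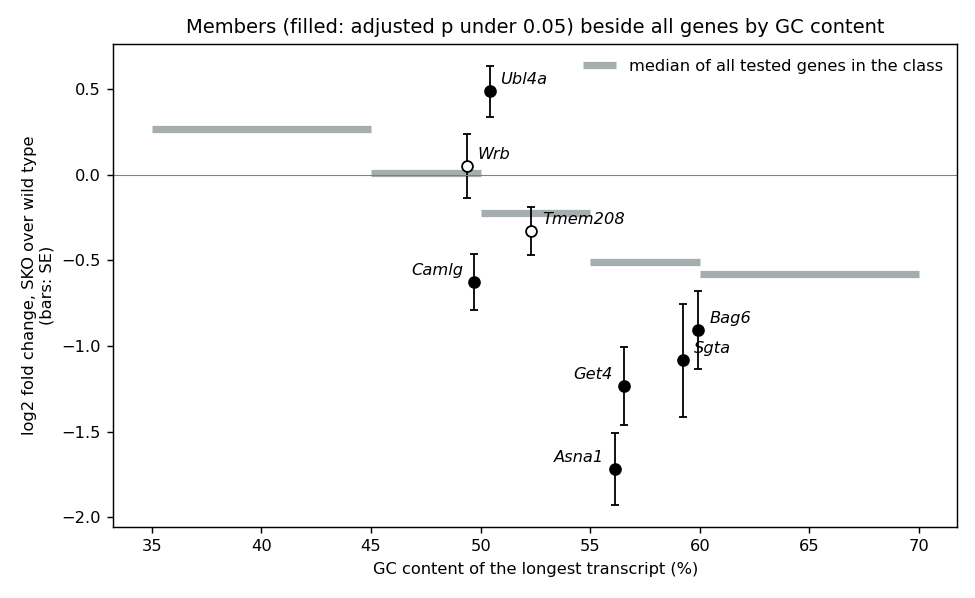
Log2 fold change (y axis) against GC content of the longest transcript (x axis) for the 8 genes, with SE bars and filled points for adjusted p under 0.05. Grey bars are medians of all tested genes in 5 GC classes, the outer 2 open-ended. Asna1, Get4, Sgta and Bag6 lie in the class whose median is −0.51.

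**Figure D4:**
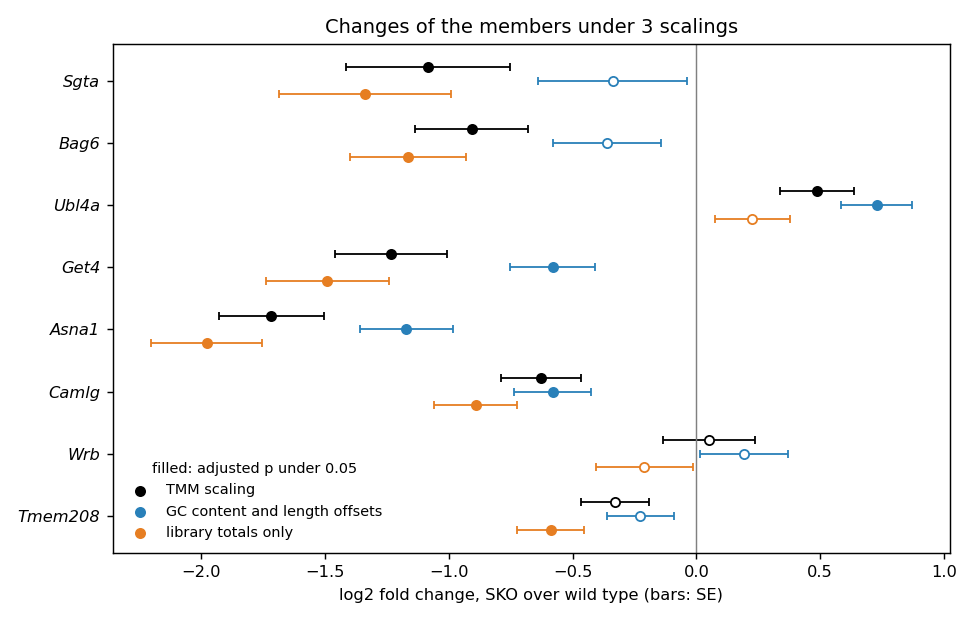
Log2 fold change with SE (x axis) of the 8 genes under TMM scaling, with GC content and length offsets and with library totals only, filled where the adjusted p is under 0.05. Asna1, Get4 and Camlg are filled on the negative side in all 3, Bag6 and Sgta are open with the offsets, and Wrb lies near 0 with either sign.

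Of 13 paralogues and cofactors of the pathway 12 were tested, and 3 were higher, 3 lower and 6 not passed, where 14.1% of all tested genes were higher and 14.4% lower. The median log2 fold change was 0.08 for the list, 0.24 with the GC content and length offsets, −0.19 with library totals, 0.038 without SKO replicate 2, 0.045 without wild type replicate 1 and 0.22 without wild type replicate 2. Rnf126, the ubiquitin ligase that works with BAG6 on proteins that fail to insert, had 4.44, 4.56 and 1.54 CPM in SKO, against 9.73, 15.1 and 11.1 CPM in wild type (log2 fold change −1.76, SE 0.40, edgeR adjusted p = 0.00479). It was lower in all SKO libraries, at few counts, and its adjusted p was 0.0557 after the GC content and length offsets. The cytosolic chaperone gene Hspa8 fell to 544 ± 39.3 CPM in SKO, against 776 ± 78.1 CPM in wild type, and the HSP70 cofactor gene Bag1 to 231 ± 21.7 CPM in SKO, against 321 ± 46.9 CPM in wild type (SD, n = 3 each, edgeR adjusted p = 0.00198 and 0.00994). The Bag1 call was lost without SKO replicate 2 (adjusted p = 0.0698), wild type replicate 1 (0.0519) or wild type replicate 2 (0.0535). Hspa2, the chaperone tied to BAG6 in the testis, had 220, 275 and 276 CPM in SKO, against 227, 215 and 289 CPM in wild type, with overlap (edgeR adjusted p = 0.717).

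Both Sec62 and Sec63, the translocon partners that serve small and post-translationally targeted precursors, rose. Sec62 had 546, 629 and 651 CPM in SKO, against 340, 301 and 410 CPM in wild type (log2 fold change 0.80, SE 0.12, edgeR adjusted p = 0.000241). Sec63 had 119, 115 and 96.5 CPM in SKO, against 53.0, 65.9 and 60.8 CPM in wild type (0.88, SE 0.14, edgeR adjusted p = 0.000312). In each every SKO library was above every wild type library, and both calls held under all 18 alternatives run. A non-coding gene on the opposite strand covers 11.7% of the Sec62 exon length. Hspa8 has near-identical relatives or pseudogenes, among which the counting could have split reads, so its values are uncertain.

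Of 38 genes for tail-anchored proteins of the ER and secretory system 37 were tested: 8 were higher, 7 were lower and 22 did not pass, beside 28.5% of all tested genes called in either direction. Their median log2 fold change was −0.21 (−0.03 for all tested genes). It was −0.0053 with the GC content and length offsets, −0.47 with library totals, −0.085 without SKO replicate 3 and −0.11 without wild type replicate 2. Without 1 library the count of increases fell to 5 (without SKO replicate 1 or SKO replicate 2) and that of decreases to 3 (without SKO replicate 3 or wild type replicate 1). Calls over all tested genes fell as well. Increases went from 1901 to 1717 without SKO replicate 1 and 1361 without SKO replicate 2. Decreases went from 1937 to 1449 without SKO replicate 3 and 1495 without wild type replicate 1. The small translocon subunits Sec61b (log2 fold change 0.95) and Sec61g (0.90) rose (edgeR adjusted p = 1.47e-05 and 3.60e-05), as did Emd, the nuclear envelope protein emerin, at 23.1, 29.9 and 25.1 CPM in SKO, against 12.4, 10.0 and 13.8 CPM in wild type (edgeR adjusted p = 0.00217). Emd is X-linked and shares 13.6% of its exon length with a processed pseudogene. Vamp2, a vesicle SNARE, fell, at 14.3, 12.8 and 10.8 CPM in SKO, against 33.6, 39.5 and 38.9 CPM in wild type (log2 fold change −1.56, SE 0.20, edgeR adjusted p = 7.11e-05). Bnip1, an ER SNARE, fell to 20.2 ± 1.33 CPM in SKO, against 37.5 ± 2.34 CPM in wild type, and the ER phosphatase gene Ptpn1 to 9.78 ± 2.64 CPM in SKO, against 25.2 ± 6.80 CPM in wild type (SD, n = 3 each, edgeR adjusted p = 0.00197 and 0.00206).

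A list of 18 genes stood for tail-anchored proteins of the mitochondrial outer membrane, which reach it without the GET receptor. It also holds Mtfp1 and Ptpmt1, whose proteins lie at the inner membrane and are not tail-anchored, and neither of which passed the test. Of the 18 genes 16 were tested, and 3 were higher, 2 lower and 11 not passed, beside 28.5% of all tested genes called in either direction. The median log2 fold change was −0.17, and it was 0.049 with the GC content and length offsets, −0.43 with library totals, −0.010 with a filter of 5 CPM, 0.0098 without SKO replicate 2 and −0.015 without wild type replicate 2. Bax, the apoptosis effector, fell to 39.1, 32.4 and 34.5 CPM in SKO, against 73.1, 117 and 60.4 CPM in wild type, with an adjusted p of 0.000612 in edgeR and 0.0859 after the GC content and length offsets. A same-strand gene model shares 12.2% of the Bax exon length. Mff, a fission receptor, fell by 0.38 on the log2 scale (edgeR adjusted p = 0.0135) and was not called without SKO replicate 2 (0.0642) or wild type replicate 2 (0.0728). Synj2bp (0.65), Fis1 (0.40) and Bcl2l13 (0.87) rose on the log2 scale (edgeR adjusted p = 0.00374, 0.0101 and 0.0452), but none of these 3 was called with library totals. With the GC content and length offsets Synj2bp stood at 0.27 (adjusted p = 0.184) and Bcl2l13 at 0.82 (0.0609), neither called. The Bcl2l13 call was also lost with no low-count filter (adjusted p = 0.0666) and without each library but wild type replicate 2. The difference between the secretory and mitochondrial lists was not tested.

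**Figure D5:**
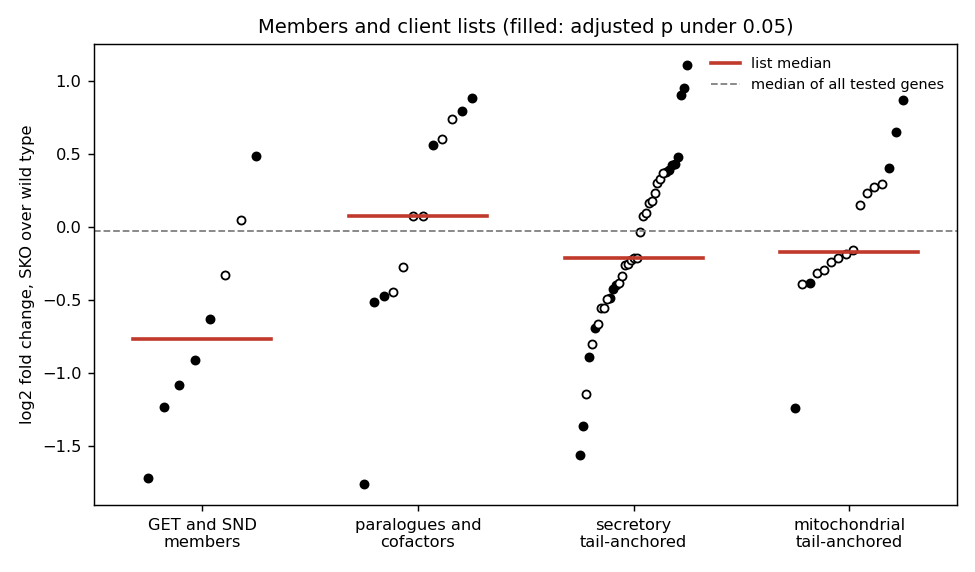
Log2 fold change (y axis) of each tested gene of 4 lists, sorted within a list, filled where the adjusted p is under 0.05, with red lines at list medians and a dashed line at the median of all tested genes (−0.03). The 8 GET and SND genes have a median of −0.77, and the medians of the other 3 lists lie between −0.21 and 0.08.

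Among 8072 other protein-coding genes with a mean of at least 5 CPM, those whose log2 CPM ran most like each member over the 6 libraries were Adrm1 and Hnrnpk for Asna1 (Pearson r = 0.999 and 0.998), Eral1 and Nhlrc3 for Get4 (0.999 and 0.997), Cdc42ep3 and Nup88 for Camlg (0.997 and 0.997), and Mydgf and Spesp1 for Bag6 (0.998 and 0.995). For Ubl4a they were Ube2k and Itgb1bp1 (0.991 and 0.989), for Sgta Rnf19b and Rab11fip2 (0.983 and 0.981), for Tmem208 Pogk and Mlc1 (0.992 and 0.990) and for Wrb Igsf11 and C330007P06Rik (0.961 and 0.956). These are descriptions over 6 libraries of both genotypes, which also differ in depth. Genotype means were not removed, so each r includes the difference between SKO and wild type. As many as 540 genes reached an r of 0.95 with Asna1, against 3 with Wrb.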

How the data were processed

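Counts were deposited as whole numbers of reads per gene, with no normalization by the authors. The submitters' processing notes name FastQC, Trim Galore 0.6.4, HISAT2 2.0.5 and the builds GRCm38 and mm10; the sources used here do not give the counting tool, strand setting or annotation. Symbols, positions and transcript GC content came from GENCODE vM21 (GRCm38), promoters from RefSeq. Smart-seq2 reads carry no molecular identifiers. Genes were kept with filterByExpr, scaled by TMM and tested with edgeR 4.0.16 in R 4.3.3 (quasi-likelihood test, genotype only); standard errors came from the same fit. The fit was also run on simulated counts without a trend on GC content, so that run says nothing about such a trend. Offsets for GC content and length were loess trends per library (span 0.3). Alternatives used DESeq2 1.42.0 and limma 3.58.1. Exact permutation tests used scipy 1.17.1. Pearson r used log2(CPM + 0.25). Members and lists were chosen with earlier results of these data known. Named genes were all members, all called cofactors (1 of them is not reported here), up to 6 called genes per tail-anchored list by smallest p, and the 2 genes most like each member. Vamp7 and Meiosin were not matched and are not analysed here. Counts of same-group libraries differed well beyond sampling (chi-square over its degrees of freedom, 12.0 to 22.2), so each library counted separately.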

Additional observations from a re-analysis of the deposited data

How the results depend on the processing

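Asna1, Get4 and Camlg kept direction and call under all 18 alternatives, and Bag6 under 17. Sgta and Ubl4a each kept direction under all 18 but lost the call under 6. With library totals 1010 genes were higher and 3168 lower (1901 and 1937 with TMM), and 0 members were higher (1 with TMM, DESeq2 and both limma-voom fits). Secretory tail-anchored genes then had 3 higher and 12 lower, mitochondrial ones 0 higher and 4 lower; by edgeR's unadjusted p under 0.05, 0 members and 1 mitochondrial gene were higher. At an adjusted p under 0.01, 1230 genes were higher and 1142 lower, and 0 members were higher and 4 lower. With GC content and length offsets, 3 members were lower (13.4% of all genes), and 5 secretory and 1 mitochondrial gene higher (1351 of all 13452 genes). Sgta/Bag6 turned to 0.12 with these offsets. Secretory decreases numbered 11 with a filter of 5 CPM, where 1981 of all 8771 tested genes were lower. They numbered 11 with sample weights too, where 2099 of 13474 were lower. Without 1 library, members higher ran from 0 to 1, secretory increases from 5 to 7 and decreases from 3 to 10, mitochondrial decreases from 1 to 2, and Sgta/Bag6 from −0.47 to 0.18. Over all tested genes, increases then ran from 1361 to 1916 and decreases from 1373 to 1851. Wrb turned to −0.21 with library totals and −0.042 with sample weights, and ran from −0.054 to 0.20 without 1 library, below 0 without SKO replicate 1, SKO replicate 3 or wild type replicate 3. The cause was not tested. Same-numbered libraries did not deviate together (r from −0.05 to 0.04), so the replicate block is an alternative only: it gave 5 members lower and 1 higher, and 1976 genes higher and 1991 lower. Counting error weighs most on Asna1, Bag6 and Sgta, with 105 to 221 counts in SKO libraries.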
